A study of Mus musculus with 2 samples.

Results

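The thin filament genes described here are 9 of the 22882 gene symbols in the 2 heart libraries, and they were picked by symbol as Tpm1, Tpm2, Tpm3, Tpm4, Acta1, Tmod1, Tmod4, Lmod2 and Nebl. Hearts came from C57BL6/J mice of both sexes at 23 days of age, untreated, and RNA of 5 mice per genotype was pooled into 1 library. The control group was homozygous for a loxP-flanked Med1 allele (Med1fl/fl). The csMed1-/- group carried the same floxed allele together with Cre under the α-myosin heavy chain promoter, which is active in cardiomyocytes, so other cells of the heart keep Med1. Because each genotype is 1 pool, there are no replicates, no test between the genotypes was made, and no value below has an error.

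The thin filament of the sarcomere is a double strand of actin with tropomyosin lying along it, and tropomyosin moves over the actin surface when calcium binds the troponin complex, which lets myosin attach. Adult mouse ventricle uses mainly cardiac actin (Actc1) and the tropomyosin of Tpm1, whereas skeletal actin (Acta1) is abundant before birth and is a familiar marker of the stressed heart. Tropomodulins cap the pointed end of the filament, leiomodins promote its elongation there, and nebulin-related proteins link the filament to the Z-disc.

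In csMed1-/- heart the abundant tropomyosin gene Tpm1 and the pointed-end genes Tmod4 and Lmod2 were lower, while skeletal actin and the tropomyosin of Tpm2 were about equally far above control. Acta1 was 9.82-fold and Tpm2 10.2-fold higher. Tmod4 was 84.8-fold lower, Lmod2 2.49-fold lower and Tpm1 2.05-fold lower. The other 4 genes, Tmod1, Tpm4, Tpm3 and Nebl, lay within 2-fold.

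Values are FPKM, which corrects the fragments of a gene for the length of its transcript and for sequencing depth, and the ratio is csMed1-/- over Med1fl/fl. All 9 genes stood on a single row, were above 0 in both libraries and reached 1 FPKM in at least one, as did 10489 genes in all. Past 2-fold, the fold threshold stated in the study, 2 of the 9 were higher, where 13.6% of the 10489 genes were. Lower by more than 2-fold were 3 of the 9, where 18.0% of the 10489 genes were. In either direction the share over all genes was 31.5%. The study also used an FDR cutoff in cuffdiff, which was not applied to these plain ratios. The median log2 ratio of the 9 genes was -0.39, beside -0.07 over all genes kept, and they ran from -6.41 to 3.35, while the quartiles of all genes were -0.72 and 0.55.

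**Figure D1:**
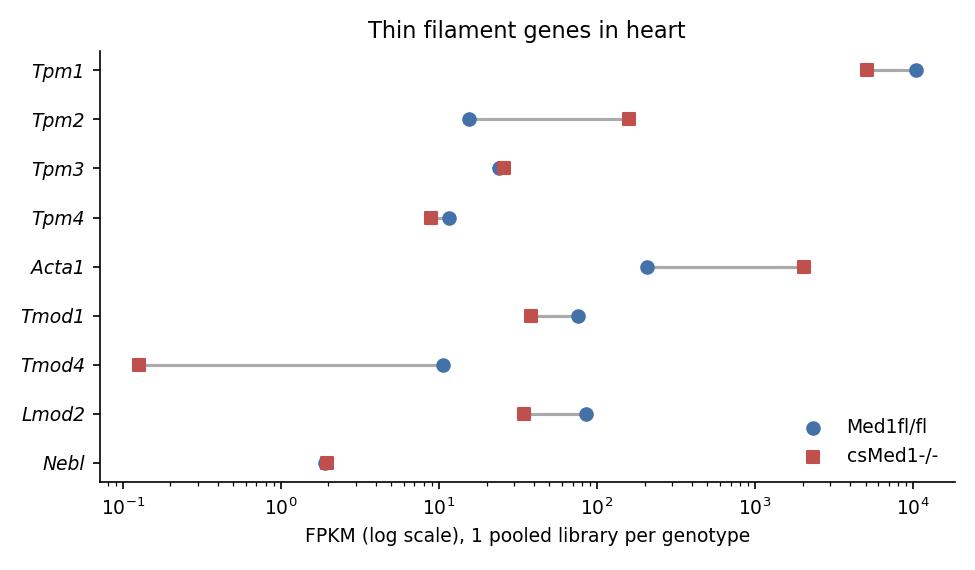
FPKM of the 9 thin filament genes on a log axis, with a circle for the Med1fl/fl library and a square for the csMed1-/- library, 1 pooled library each. Acta1 and Tpm2 lie far to the right of control, Tmod4 far to the left, and Tpm3 and Nebl almost coincide.

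RNA of the targeted gene was lower, since Med1 had 3.38 FPKM in Med1fl/fl and 0.412 FPKM in csMed1-/- heart. The loss of the floxed exons cannot be seen in a gene-level value and was not examined. Read counts are not part of the values analysed here. The most frequent ratio among 2461 rows at 0.15 FPKM or less in both libraries was 0.722, the step that 1 read makes in each, so csMed1-/- heart was sequenced 1.39 times as deeply, provided that mapped fragments alone set the scaling. Cardiac identity was plain from the cardiomyocyte markers, with Myl2, the highest in control, at 20467 and 6571 FPKM, but 3 rows that any heart should fill, Actc1, Mb and the joint row of Myh6 and Myh7, are listed at 0 in the control library and at 9189, 1040 and 646.9 FPKM in csMed1-/- heart. For these rows no fold was computed.

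Actin. Acta1 (chromosome 8, 123891769 to 123894751, minus strand, GRCm38) had 207 FPKM in Med1fl/fl and 2033 FPKM in csMed1-/- heart, a log2 ratio of 3.30. It moved from the 511th to the 53rd highest gene, and 98.8% of the genes kept had a lower ratio. The gain of 1826 FPKM was the 9th largest of any gene, counted with the rows listed at 0 in control. Gm20388, annotated over the whole of Acta1 on the other strand, had no value under that symbol.

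Cardiac actin could not be set against skeletal actin in the control library, because Actc1 is listed at 0 there. In the csMed1-/- library Actc1 stood at 9189 FPKM, 4.52 times Acta1, so that skeletal actin made up 18.1% of the summed FPKM of these striated actins. Whether reads were shared between Acta1 and Actc1 was not tested. Nor was it tested whether the 0 of Actc1 bears on the control value of Acta1, and so on its ratio. The other actin genes gave no change past 2-fold. Acta2, the smooth muscle actin that is also expressed in the immature heart, had 572.6 and 310.0 FPKM (log2 ratio -0.89). The cytoskeletal actins Actb, at 422 and 601 FPKM, and Actg1, at 368 and 497 FPKM, were 1.42-fold and 1.35-fold higher, and Actg2 had 2.30 and 1.97 FPKM.

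The promoter of Acta1 is a well-studied example of a muscle promoter, in which serum response factor binds CArG boxes and TEAD factors bind M-CAT elements. Its upstream stretches are shown because Acta1 is one of the members far above control. They are from RefSeq (GRCm38.p6), 5′ to 3′ on the minus strand, with the motif in capitals.
Acta1 CArG box, chr8:123894829-123894858: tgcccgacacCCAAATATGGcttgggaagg
Acta1 M-CAT, chr8:123894806-123894831: agggcagcaaCATTCCttcggggcgg
Acta1 TATA box, chr8:123894776-123894792: cccgggactaTATAAAa
The CArG box lies 73 to 64 bases, the M-CAT 46 to 41 bases and the TATA box 7 to 2 bases before the RefSeq start at 123894775. Counted from the GENCODE start at 123894751, the TATA box begins 31 bases upstream.

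The same search, in 250 bases before each start and on both strands, covered the 13 RefSeq windows of all 9 genes, and the M-CAT was spelled CATTCC and the TATA box TATAAA. A CArG box was found in 2 of the 13 windows, 1 each of Acta1 and Nebl, where 1.47% of 32851 windows of all genes held one. In Nebl it lies before only 1 of its 4 annotated starts, chr2:17462999-17463028. That stretch, on the minus strand, is printed beside those of Acta1 because the gene-level ratio of Nebl was near 1.
Nebl CArG box: gctcccatctCCTAAATTGGctggaaatgc
M-CAT was found in 4 of the 13 windows (1 each of Acta1, Nebl, Tmod1 and Tpm1), beside 12.6% of all windows, and the TATA box in 1, that of Acta1, beside 12.4%. Tpm2, with a ratio close to that of Acta1, had none of these letters in its window (start at 43523554 of chromosome 4). Its GENCODE start, at 43523765, lies inside that window, so most bases upstream of the GENCODE start were not searched. Of the motifs found, only those of Acta1 lie upstream of the GENCODE start of their gene. The genes with a motif had ratios far above 1 (Acta1), near 1 (Nebl) and near 0.5 (Tpm1 and Tmod1). Whether motif and ratio go together was not tested, and gene-level values do not separate transcripts from the 4 starts of Nebl.

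Tropomyosins. Tpm1 (chromosome 9, 67022590 to 67049406, minus strand) encodes the main striated muscle tropomyosin of heart. It had 10408 FPKM in Med1fl/fl heart but 5085 FPKM in csMed1-/- heart, at a ratio of 0.489 (log2 ratio -1.03). It was the 3rd highest gene in control and the 10th in csMed1-/- heart, and its difference of -5323 FPKM was the 5th largest decrease of any gene. Its share of all summed FPKM went from 1.33% to 0.710%.

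Tpm1 lay just past the 2-fold threshold. It was inside the threshold after centring on the median of all genes (-0.96) and after scaling to the summed FPKM (-0.91). The median log2 ratio of 13 cardiomyocyte markers was -1.03 as well, set by the troponin gene Tnnt2. Of these 13, 7 were lower by more than 2-fold and 0 higher, beside 18.0% and 13.6% of all genes kept. These markers ran from -3.78 (Pln) to 0.56 (Actn2), so their median stands for no common shift. Set against that median, Tpm1 stood at -0.01. In bulk RNA, fewer cardiomyocytes and less RNA per cardiomyocyte cannot be told apart.

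Tpm2 (chromosome 4, 43514711 to 43523765, minus strand) encodes beta-tropomyosin, found in skeletal and smooth muscle and in immature ventricle. It had 15.6 FPKM in Med1fl/fl and 159 FPKM in csMed1-/- heart, a log2 ratio of 3.35, and 98.8% of the genes kept had a lower ratio. Among the 5426 genes at 10 FPKM or more in either library, Tpm2 and Acta1 had neighbouring places, the 53rd and the 54th highest ratios. Acta1 was 13.3 times Tpm2 in control and 12.8 times in csMed1-/- heart, so the proportion of these genes to each other was close to the same in both libraries.

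Tpm3 and Tpm4, which encode slow-muscle and cytoskeletal forms, differed little. Tpm3 (chromosome 3, 90072649 to 90100902) had 23.8 and 25.9 FPKM, a ratio of 1.09. Tpm4 (chromosome 8, 72134975 to 72153142) had 11.6 and 8.86 FPKM, a ratio of 0.762. Copies named Tpm3-rs2 and Tpm3-rs7 exist in the annotation and had no value under these names, so reads could have been shared between them and Tpm3.

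The order of the minor tropomyosins therefore differed. In control it was Tpm3, Tpm2 and Tpm4 from high to low, with Tpm2 at 0.655 times Tpm3, and in csMed1-/- heart it was Tpm2, Tpm3 and Tpm4, with Tpm2 at 6.15 times Tpm3. Tpm2 went from 0.149% to 3.02% of the summed tropomyosin FPKM. Tpm1 remained 99.5% of that sum in control and 96.3% in csMed1-/- heart, and it was 667 times Tpm2 in control but 31.9 times in csMed1-/- heart. The sum of all 4 genes had a ratio of 0.505. These shares are taken within a library, so library scaling does not enter them. The gene-level values do not separate the muscle and cytoskeletal transcripts that each tropomyosin gene makes.

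**Figure D2:**
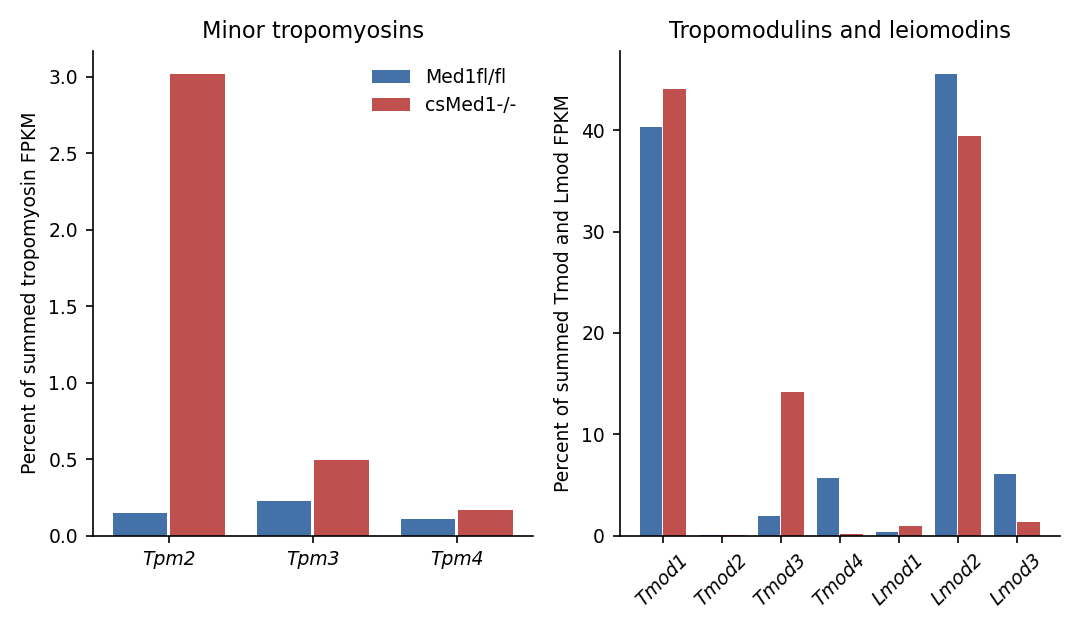
Percent of the summed FPKM of each family, in bars that start at 0, for Med1fl/fl (blue) and csMed1-/- (red), 1 pooled library each. The left panel leaves out Tpm1, which held 99.5% and 96.3%, and shows Tpm2 at 0.149% and 3.02%. The right panel shows Tmod1 and Lmod2 as the main genes in both libraries, with less Tmod4 and Lmod3 and more Tmod3 in csMed1-/- heart.

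Pointed-end genes. Tmod4 (chromosome 3, 95124476 to 95129209) encodes the tropomodulin best known from fast skeletal muscle. Its 10.7 FPKM in control stood against 0.126 FPKM after deletion, a log2 ratio of -6.41, and among the genes at 10 FPKM or more it was the 6th lowest ratio. Judged by the values that single reads give in genes with 1 annotated transcript, these levels stand for about 770 and 12 reads on its transcript of 1242 bases. With 1 FPKM added to both values the log2 ratio was -3.37, still past 4-fold.

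Tmod1 (chromosome 4, 46038935 to 46116032) encodes the tropomodulin of cardiac sarcomeres. Tmod1 was at 75.6 FPKM in Med1fl/fl and 38.3 FPKM in csMed1-/- heart, a log2 ratio of -0.98, just inside 2-fold. Scaling to the 75th percentile put it past 2-fold (-1.02). Its 3′ end overlaps Tstd2 on the other strand by 1287 bases, and Tstd2 had 55.3 and 29.0 FPKM, a ratio of 0.524 beside 0.507 for Tmod1. The libraries were directional, but whether the counting used strand is not given in the sources used here.

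Lmod2 (chromosome 6, 24597762 to 24605414), the leiomodin that lengthens cardiac thin filaments, had 85.5 FPKM in Med1fl/fl and 34.3 FPKM in csMed1-/- heart, a log2 ratio of -1.32. Lmod2 and Tmod1, which act against each other at the pointed end, were near each other in both libraries, with Lmod2 at 1.13 times Tmod1 in control and 0.894 times in csMed1-/- heart. Both remained the main genes of their family. Tpm1 was 138 times Tmod1 in control and 133 times in csMed1-/- heart.

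Over all 7 tropomodulin and leiomodin genes the summed FPKM went from 187.5 to 87.0, a ratio of 0.464. Tmod3, the widely expressed tropomodulin, was the one past 2-fold in the other direction, at 3.67 and 12.3 FPKM (3.35-fold higher), and its share went from 1.96% to 14.2%. Lmod3, a leiomodin of skeletal muscle, was 10.2-fold lower, at 11.4 and 1.12 FPKM. Tmod2, at 0.0637 and 0.0419 FPKM, and Lmod1, at 0.634 and 0.783 FPKM, were low in both libraries. Tmod1 was 20.6 times Tmod3 in control and 3.11 times in csMed1-/- heart.

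Nebl (chromosome 2, 17343909 to 17731464, minus strand) encodes nebulette, the small nebulin relative of the cardiac Z-disc. The control library gave 1.90 FPKM and the csMed1-/- library 1.95 FPKM, a ratio of 1.03, and scaling to the 75th percentile gave a log2 ratio of -0.00116, so its direction is not settled. Nebl was a low gene beside Nrap, the nebulin-related anchoring protein of developing myofibrils, which had 137 and 223 FPKM (1.63-fold higher). Neb, the giant nebulin of skeletal muscle, was at 0.0175 and 0.0567 FPKM.

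**Figure D3:**
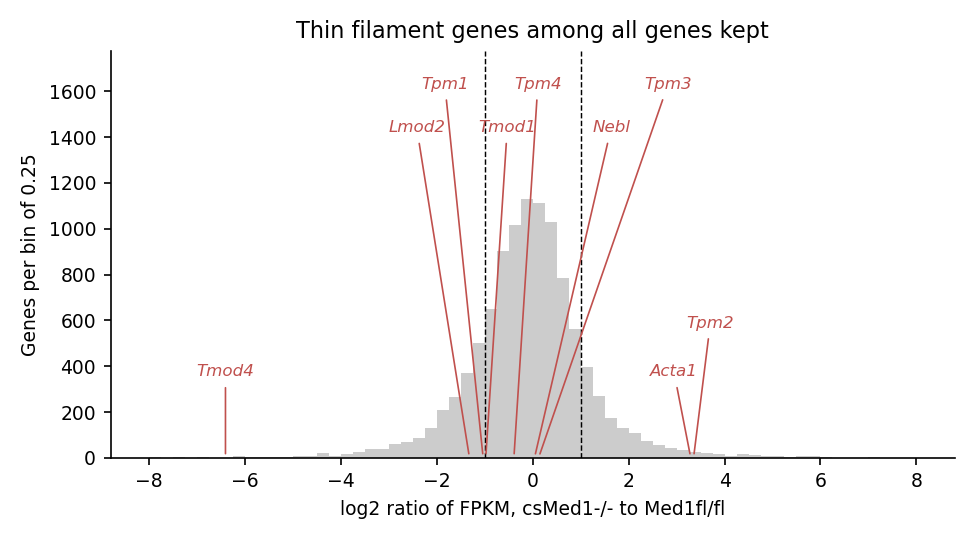
Histogram of the log2 ratio of FPKM, csMed1-/- to Med1fl/fl, for the 10489 genes kept, with lines to the ratios of the 9 thin filament genes and dashed lines at 2-fold. Tmod4 (-6.41), Acta1 (3.30) and Tpm2 (3.35) sit in the tails, and Tpm1 (-1.03) and Tmod1 (-0.98) lie on either side of the lower line.

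Levels in order. In Med1fl/fl heart the 9 genes ran from Tpm1 through Acta1, Lmod2, Tmod1, Tpm3, Tpm2, Tpm4 and Tmod4 to Nebl. In csMed1-/- heart the order was Tpm1, Acta1, Tpm2, Tmod1, Lmod2, Tpm3, Tpm4, Nebl and Tmod4. With 1 library per genotype, whether neighbours in these orders differ cannot be said. Tpm1 was 50.3 times Acta1 in control and 2.50 times in csMed1-/- heart. The 9 genes together held 1.39% and 1.03% of the summed FPKM.

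Partners on the filament. Of 8 troponin genes 6 were kept, 4 of them lower by more than 2-fold and 1 higher, with a median log2 ratio of -1.60. For this and each list below, the shares over all genes kept were 18.0% lower and 13.6% higher, with a median of -0.07. The inhibitory subunit of adult heart, Tnni3, had 10283 and 1537 FPKM, and Tnnt2, the tropomyosin-binding subunit, had 2280 and 1119 FPKM, a log2 ratio of -1.03 like that of Tpm1. Tnnc1, the calcium-binding subunit, had 4647 and 5823 FPKM. Tnni1, the inhibitory subunit of immature heart, was the higher one, at 0.947 and 9.72 FPKM. At 10.3-fold its ratio lay beside those of Acta1 and Tpm2. The other lower ones were Tnnt1, at 9.77 and 2.17 FPKM, and Tnni2, at 5.38 and 0.276 FPKM.

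Over all genes kept, 13.6% were higher and 18.0% lower by more than 2-fold. Of 30 measured genes for actin assembly and capping, 7 were higher and 4 lower by more than 2-fold, and 19 lay within it, with a median log2 ratio of 0.36. The higher genes included the actin depolymerizing factor Cfl1 (208 and 552 FPKM), the monomer-binding Pfn1 (528 and 1211 FPKM) and the disassembly factor Wdr1 (68.4 and 155 FPKM). Also higher were the actin cross-linkers Actn1 (9.60 and 77.5 FPKM) and Flnc (118 and 408.5 FPKM) and the integrin-linked Tln1 (45.7 and 103 FPKM). The 7th, Xirp2, stayed below 10 FPKM. The lower genes were Csrp3, a muscle LIM protein (1773 and 646 FPKM), the cardiac formin Fhod3 (81.4 and 21.5 FPKM), the coronin Coro6 (101.9 and 29.5 FPKM) and Pfn2, which stayed below 10 FPKM. The barbed-end capping gene Capzb had 181 and 329 FPKM, 1.82-fold higher. The sarcomeric alpha-actinin Actn2, the highest of the list in csMed1-/- heart, had 1286 and 1892 FPKM.

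Serum response factor and its partners act on many actin genes. Of 16 genes kept on this list, 2 were higher, 3 lower and 11 within 2-fold, with a median log2 ratio of 0.24. Both counts are near the shares over all genes kept, 13.6% higher and 18.0% lower. Srf had 58.0 and 74.3 FPKM, its coactivator Myocd 9.24 and 4.53 FPKM, and the actin-regulated coactivators Mkl1 and Mkl2 had 6.61 and 8.47 FPKM and 5.77 and 4.40 FPKM. Abra, which activates serum response factor signalling in striated muscle, was 3.78-fold higher (7.49 and 28.3 FPKM). Fhl2, a LIM-domain cofactor and the highest of the list in control, was 9.99-fold lower (1748 and 175 FPKM), and Hopx, an inhibitor of serum response factor, was 5.43-fold lower (359 and 66.2 FPKM). Tbx20 was also higher, at 2.40 and 6.96 FPKM.

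**Figure D4:**
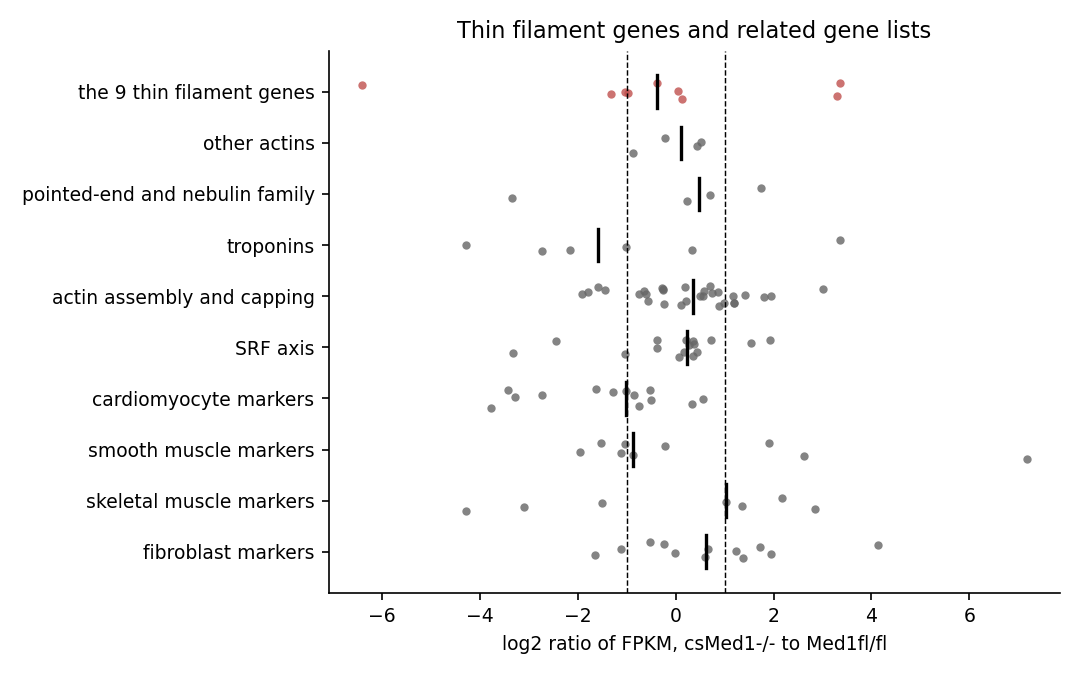
log2 ratio of FPKM, csMed1-/- to Med1fl/fl, for the 9 thin filament genes (red) and the kept genes of related lists (grey), 1 point a gene, with a bar at each median and dashed lines at 2-fold. Troponins (median -1.60) and cardiomyocyte markers (median -1.03) lie mostly to the left, and the thin filament genes spread on both sides. Some genes, such as Tnnt2, Tnni3 and Tnnc1, are in more than 1 list.

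Markers of other muscle types lay in both directions beside these genes. Because Acta1, Tpm2 and Tmod4 are also skeletal muscle genes, the skeletal markers were examined. Of 18 measured, 7 were kept, 4 higher and 3 lower by more than 2-fold, beside 13.6% and 18.0% of all genes kept. Without Ckm, which cardiomyocytes also express, the measured markers summed to 30.9 FPKM in Med1fl/fl and 57.8 FPKM in csMed1-/- heart. The rise in this sum came from Myl1 and Mybpc2, and the rest of the sum was lower in csMed1-/- heart. Of the defining markers, Myod1 and Myog were listed at 0 in both libraries, and the joint row of Myh2 and Myh8 had 2.93 and 0.264 FPKM. Myh1 had 4.05 and 0.471 FPKM, Myh4 0.878 and 0.135 FPKM, Actn3 0.366 and 0.733 FPKM, Mylpf 0.955 and 2.44 FPKM, and Tnnt3 0.0967 and 0.867 FPKM. Among the other markers, the light chain Myl1 had 13.0 and 26.4 FPKM and Mybpc2, a myosin-binding protein of fast muscle, 5.25 and 23.6 FPKM. With Myoz1, at 0.299 and 2.15 FPKM, these were past 2-fold higher. Tnni2, at 5.38 and 0.276 FPKM, and Ckm, at 5262 and 1837 FPKM, were past 2-fold lower. The part of skeletal fibres in the values of Acta1, Tpm2 and Tmod4 was not tested.

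Smooth muscle markers are of interest because Tpm2 is a smooth muscle gene. Of 10 measured, 9 were kept, 3 higher and 4 lower by more than 2-fold, beside 13.6% and 18.0% of all genes kept. The list summed to 869 and 1703 FPKM. Its highest gene in csMed1-/- heart, the regulatory light chain Myl9, had 102 and 623.5 FPKM, and without it the sum was 767 and 1079 FPKM. In control the highest was Acta2, a defining marker, which was lower in csMed1-/- heart, at the values given above. Among the other defining markers Cnn1 had 4.32 and 622 FPKM, a gain larger than that of the sum without Myl9. Tagln had 23.8 and 89.7 FPKM, whereas Myh11, the smooth muscle myosin, had 3.68 and 1.79 FPKM. Smtn, at 119 and 41.1 FPKM, and Synpo2, at 37.2 and 9.51 FPKM, were also lower. Of 12 fibroblast markers 5 were higher, 2 lower and 5 within 2-fold, with a sum of 753 and 1529 FPKM. Without Col1a1, the highest of them in csMed1-/- heart, the sum was 623 and 1027 FPKM. The higher ones were Postn (17.5-fold), Col1a1 (3.87-fold), Col1a2 (3.29-fold), Fn1 (2.59-fold) and Tcf21 (2.35-fold). The lower ones were Dpt (3.15-fold) and Lum (2.16-fold). Pdgfra, at 4.09 and 4.03 FPKM, and Dcn, at 114 and 96.6 FPKM, were among those within 2-fold. The part of these cells in the values of Tpm2, Tpm4 and Tmod3 was not tested.

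Atrial markers were looked at as well, since a pool can hold more or less atrium. Of 7 measured, 4 were kept, 2 higher and 1 lower, and Nppa, which failing ventricle also makes, had 468 and 11114 FPKM. Without Nppa the list summed to 43.2 and 61.0 FPKM. Myl4, the atrial essential light chain that immature ventricle also makes, had 7.44 and 55.2 FPKM (7.41-fold higher), and Stard10 had 33.8 and 4.42 FPKM. Myl7, a defining atrial light chain, had 1.42 and 1.10 FPKM, Sln had 0.356 and 0.174 FPKM, and Bmp10 was listed at 0 in both. The part of atrial tissue in the values of the thin filament genes was not tested. Of 8 endothelial markers 1 was higher and 3 lower, and of 8 macrophage markers kept 1 was higher and 0 lower. The shares over all genes kept were 13.6% higher and 18.0% lower.

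Acta1 belongs to the genes of immature and stressed heart. Of 9 such genes kept, not counting Acta1 itself, 4 were higher and 2 lower by more than 2-fold, with a median log2 ratio of 0.89. Over all genes kept the shares were 13.6% higher and 18.0% lower. Nppa and Tnni1, at the values given above, were 23.7-fold and 10.3-fold higher. Nppb, the brain natriuretic peptide gene, had 167 and 1480 FPKM (8.83-fold higher), beside the 9.82-fold of Acta1. Xirp2 had 2.56 and 9.91 FPKM. Ankrd1, often raised in the stressed heart, had 103 and 125 FPKM and lay within 2-fold. Myh7b was 9.87-fold lower, at 1.78 and 0.180 FPKM, and Csrp3 2.74-fold lower, at 1773 and 646 FPKM.

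**Figure D5:**
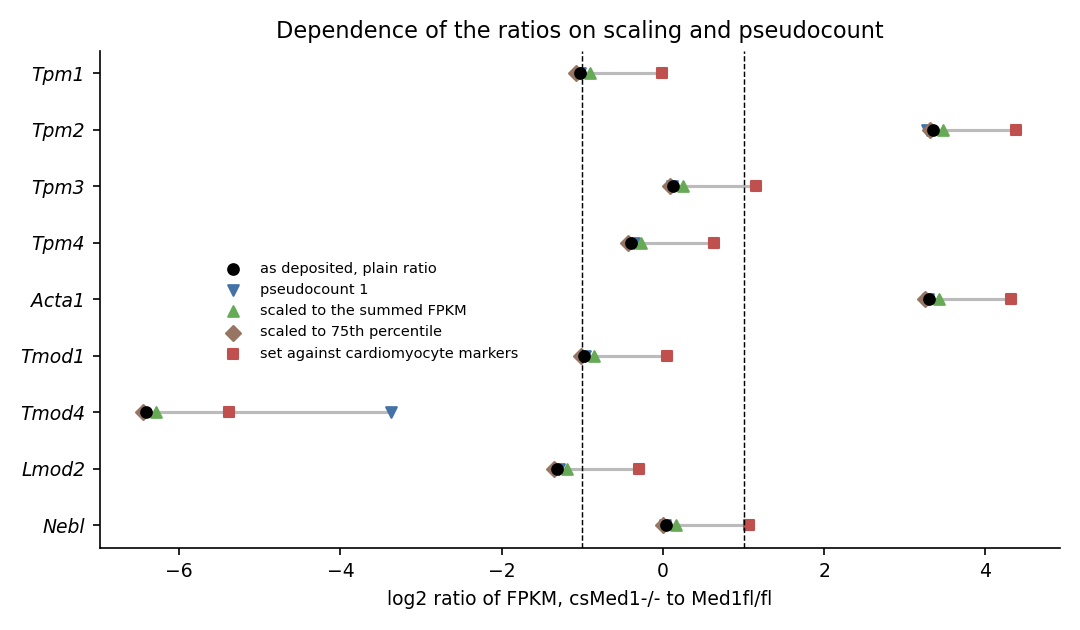
log2 ratio of FPKM, csMed1-/- to Med1fl/fl, of the 9 thin filament genes under 5 treatments of the values (symbols), with the range over all alternatives as a grey line and dashed lines at 2-fold. Acta1 and Tpm2 stay at 3.26 or above, Tmod4 at -3.37 or below, and setting the ratios against cardiomyocyte markers moves Tpm1 to -0.01 and Tmod1 to 0.05.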

How the data were processed

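Polyadenylated heart RNA of 5 mice per genotype was pooled, and a directional single-end library of 50 nt reads was made for each genotype. Alignment by the authors used TopHat v2.0.8b and mm10 (GRCm38), and the deposited FPKM values of known genes were computed with Cufflinks v2.1.1 and cuffdiff. The library scaling is not given in the sources used here. The submitters' processing notes also list STAR 2.4.0h, Bowtie2 and DESeq2.

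Rows sharing a symbol were summed. A gene was kept if neither library listed it at 0 and either gave it at least 1 FPKM, and the change is the plain ratio of FPKM. The genes and lists were chosen with earlier results of these data known. From each list the text was to name genes past 2-fold at 10 FPKM or more and the highest gene. Marker lists are given mainly as counts and sums, with values for defining markers, and genes named beyond the rule (such as Mkl1, Actn3 and Ankrd1) were chosen after their values were seen. The ratio code was run on simulated data with known changes, which checks the calculation only and says nothing about variation between pools. Positions are from GENCODE M21 and promoters from RefSeq, both GRCm38, joined by symbol, with all 9 matched. Protein sequences were not used here. Absolute depth is not given, so the read numbers for Tmod4 are estimates. Python 3.11.15, numpy 2.4.6, pandas 2.3.3 and matplotlib 3.10.9 were used. Alternatives were pseudocounts of 0.1 and 1, 5 other scalings, the highest row only, thresholds of 1.5-fold and 4-fold and other filters.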

Additional observations from a re-analysis of the deposited data

How the results depend on the processing

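Acta1 and Tpm2 were the members higher by more than 2-fold under every pseudocount, scaling, filter and threshold tried, with log2 ratios of 3.26 to 4.32 and 3.27 to 4.38, and Tmod4 was lower by more than 2-fold under every one, at -6.44 to -3.37. The count of higher members was 4 in place of 2 when ratios were set against the median of 13 cardiomyocyte markers, with Tpm3 (1.15) and Nebl (1.06) added, and the count of lower members was then 1 in place of 3, which left Tmod4. By construction this shifts all genes by 1.03 on the log2 scale, so that 5042 genes were higher and 525 lower by more than 2-fold, in place of 1423 and 1886. At a 4-fold threshold 1 member was lower, where 5.14% of all genes were, and 2 were higher, where 4.32% were. Scaling to the summed FPKM shifted the median of all genes by 0.12. Of 72 values of single members under an alternative, 62 kept both direction and side of 2-fold, 10 did not, and 0 of those past 2-fold changed sign. Each scaling moves all genes by 1 common shift, of -0.04 to 0.12 apart from the marker median, so this tally is no measure of robustness. Taking the highest row only could change no member, because each stood on a single row. Without counts or replicates, counting error and the variation between pools are both unknown. No paired analysis was possible because each genotype has 1 library.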
